A study of Mus musculus with 8 samples.

Results

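The genes described here are 10 genes of liver X receptor (LXR) signalling, cholesterol export and cholesterol ester handling, taken by symbol from the 24421 genes listed in every full table: Abca1, Abcg1, Nr1h2, Nr1h3, Apoe, Soat1, Nceh1, Ch25h, Cyp27a1 and Lpcat3. RAW macrophages, cells of a mouse macrophage line, were profiled by RNA sequencing in 4 groups of 2 libraries each. MCD-LPS cells received methyl-β-cyclodextrin (MCD), a sugar ring able to extract cholesterol from the plasma membrane, at 5 mM for 1 hr, were washed, and then received lipopolysaccharide (LPS) at 100 ng/ml for 3 hr. LPS cells received the LPS alone, MCD cells the MCD alone, and ctl cells neither. All groups are one cell line with no genetic change, so that each is a culture treatment of the same line. That the ctl and LPS samples are the libraries tabulated beside the MCD ones is an inference from the column names. The study's methods describe the untreated and MCD-treated cells as duplicates, without saying whether these were separate cultures, and p-values then measure only the spread between these libraries, which may be technical.

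LXRs are nuclear receptors that are switched on by oxysterols, the oxidised forms of cholesterol, and bind DNA together with a retinoid X receptor (RXR). In macrophages they are known for raising the pumps that pass cholesterol to lipoproteins. Cholesterol that is not exported can be stored as ester, which an acyltransferase makes and hydrolases take apart again. The question the comparisons address is what acute removal of membrane cholesterol did to these genes, in resting cells and in cells then given LPS.

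Each library held between 38645458 and 48436956 reads in genes, and levels are given as CPM, a gene's share of its library's reads in genes, scaled alike in all libraries. All 8 macrophage markers checked were above 1 CPM in all 8 libraries, and the marker sums of T cells, B cells, epithelium and hepatocytes stayed at or below 0.245 CPM, while 0 of 4 fibroblast markers were above 1 CPM in all 8 libraries. Response genes of both treatments were read first. Hmgcs1, an enzyme of cholesterol synthesis, was at 182 and 261 CPM in MCD cells, against 93.7 and 89.9 CPM in ctl cells, and at 306 and 304 CPM in MCD-LPS cells, against 117 and 139.8 CPM in LPS cells. It rose in both settings, with limma adjusted p of 0.000375 in MCD-LPS against LPS cells and 0.0023 in MCD against ctl cells, and the second was 0.0522 without ctl replicate 1 and 0.0559 without ctl replicate 2. Tnf, an early LPS-response gene, was at 712 and 1635 CPM in the LPS libraries, against 74.8 and 72.4 CPM in the ctl libraries, so that the LPS libraries were far apart from each other for this gene. Tnf was at 708 and 555 CPM in the MCD-LPS libraries, and MCD alone put it at 667 and 781 CPM, level with one of the LPS libraries (log2 fold change of 3.30 in MCD against ctl cells, limma adjusted p of 0.00089). Il1b likewise averaged 5.06 CPM in LPS cells, 5.31 CPM in MCD cells and 0.307 CPM in ctl cells, and Il6 was at no more than 0.0518 CPM in the LPS libraries. In these libraries these genes therefore did not separate the LPS from the MCD treatment. The study's RNA sequencing also listed Il1b and Tnf among the genes that MCD raised most in resting RAW cells. By quantitative PCR of RAW cells at these doses, the study reported much weaker changes of Il1b and Tnf with MCD than with LPS. The libraries here differ from the quantitative PCR in the size of the MCD change beside that with LPS. The reason was not tested. Untreated and LPS-treated cells stand in tables that were normalized separately and under different column prefixes. The LPS treatment and that prefix cannot be told apart, and levels across it are given with no test.

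Of the 10 genes, 9 were tested, and Ch25h was at 0 reads in all 8 libraries. In MCD against ctl cells 0 of the 9 passed the test, where 1.11% of 11777 genes did (limma, Benjamini-Hochberg adjusted p under 0.05), and 1 of the 9 had an unadjusted p under 0.05. In MCD-LPS against LPS cells 2 of the 9 passed, Abcg1 and Soat1, both lower, where 25.9% of 11976 genes passed in either direction and 13.0% were lower. For the difference between these MCD effects 0 of the 9 passed in limma, where 17.1% of 11545 genes did, and 0 had an unadjusted p under 0.05. The median log2 fold change of the 9 was -0.02 in MCD against ctl cells and 0.03 in MCD-LPS against LPS cells, beside medians of -0.0018 and 0.0026 over all genes tested. Larger gaps lay between LPS-treated and untreated cells. There 4 of 9 genes (Abca1, Abcg1, Nr1h3 and Nceh1) were lower by 1.5-fold or more with libraries that did not overlap, and 1 (Nr1h2) was higher, in both LPS against ctl and MCD-LPS against MCD cells. In such bulk libraries a lower share of cells that use a gene and less of its RNA per cell cannot be told apart. The share of all 12208 genes past the same rule was 15.7% lower and 19.2% higher in LPS against ctl cells, and 15.0% lower and 17.5% higher in MCD-LPS against MCD cells.

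**Figure D1:**
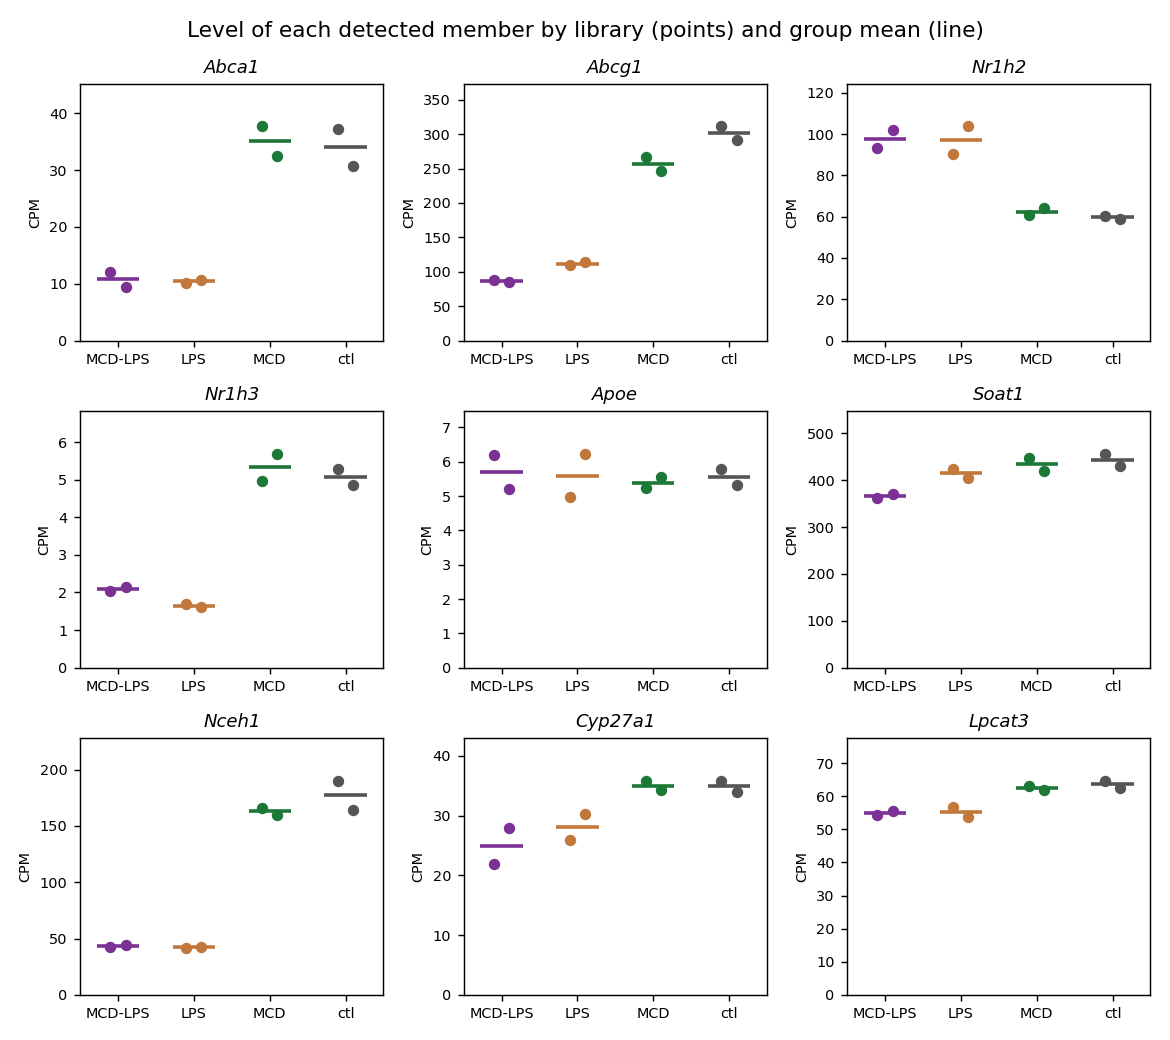
Level in CPM (vertical axes, each starting at 0) of the 9 detected genes in each library (points) and the mean of each group (lines), for MCD-LPS, LPS, MCD and ctl cells from left to right. Abca1, Abcg1, Nr1h3 and Nceh1 are lower and Nr1h2 is higher in all 4 LPS-treated libraries than in all 4 untreated ones.

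Abca1 codes for the membrane pump that hands cholesterol and phospholipid to lipid-poor apolipoprotein A-I. It lies on chromosome 4, 53030787 to 53159895, on the minus strand (GRCm38, GENCODE annotation). The level was 12.1 and 9.48 CPM in the MCD-LPS libraries, against 10.2 and 10.7 CPM in the LPS libraries. In the MCD libraries it was 37.7 and 32.4 CPM, against 37.3 and 30.7 CPM in the ctl libraries. The MCD and MCD-free libraries overlapped in both settings, while the LPS-treated and untreated libraries did not. The log2 fold change was 0.05 (SE 0.13) in MCD-LPS against LPS cells, with a limma adjusted p of 0.805, and 0.05 (SE 0.13) in MCD against ctl cells, with a limma adjusted p of 0.934. The mean level was 3.25-fold lower in LPS than in ctl cells and likewise 3.25-fold lower in MCD-LPS than in MCD cells.

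The 250 bases before the start were read for the genes with lower levels in LPS-treated than in untreated cells. They were searched for DNA letters that an LXR/RXR pair binds, as a description only. RefSeq promoter entries (GRCm38.p6) were matched for 9 of the 10 genes, all but Abcg1. The motif searched was the direct repeat DR4, which is AGGTCA followed after any 4 bases by AGGTCA again, on both strands. With up to 2 of its 12 fixed letters changed it was in none of the 12 windows of these 9 genes, and in 2.57% of 32851 promoter windows of the same length. With up to 3 changed, a setting chosen after the sequences were seen, it was in the Abca1 window alone, and in 18.5% of all windows. That match lies 67 to 52 bases before the Abca1 start, on the strand opposite to the gene, and is printed in capitals. The windows are chr4:53159896-53160145 (minus strand) for Abca1, chr3:27182754-27183003 (plus strand) for Nceh1 and chr2:91195117-91195366 (minus strand) for Nr1h3. The Nr1h3 and Nceh1 windows precede RefSeq starts that lie inside these genes as GENCODE draws them. The last bases of the Nceh1 window therefore lie inside that gene. A second, overlapping RefSeq window of Nr1h3, chr2:91195036-91195285, held no DR4 match at either setting.
Abca1: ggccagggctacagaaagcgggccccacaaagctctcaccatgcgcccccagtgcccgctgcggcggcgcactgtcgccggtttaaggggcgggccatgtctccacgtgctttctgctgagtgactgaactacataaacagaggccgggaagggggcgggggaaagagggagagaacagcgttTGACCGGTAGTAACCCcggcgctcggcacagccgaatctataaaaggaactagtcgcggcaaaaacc
Nceh1: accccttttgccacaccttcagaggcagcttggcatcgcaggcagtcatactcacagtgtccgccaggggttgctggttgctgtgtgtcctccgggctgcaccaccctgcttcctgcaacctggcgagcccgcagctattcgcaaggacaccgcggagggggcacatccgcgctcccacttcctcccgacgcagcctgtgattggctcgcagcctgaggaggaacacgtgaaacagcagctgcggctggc
Nr1h3: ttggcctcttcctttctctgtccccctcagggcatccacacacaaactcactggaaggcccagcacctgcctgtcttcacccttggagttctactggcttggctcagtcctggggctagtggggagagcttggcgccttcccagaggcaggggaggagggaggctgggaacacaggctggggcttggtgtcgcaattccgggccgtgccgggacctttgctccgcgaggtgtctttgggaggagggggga
The Abca1 and Nceh1 windows each also hold 1 E-box (CACGTG), which 6.02% of all windows hold. The Abca1 window has 2 Sp1 boxes (GGGCGG), a motif in 32.7% of all windows. These are matches of letters within a short window, and binding was not measured here. A site that departs further from the repeat is missed, so that no match does not mean no site. The search can neither establish nor exclude that the Abca1 match is a binding site.

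Abcg1 codes for the pump that passes cholesterol to high-density lipoprotein, and it lies on chromosome 17, 31057675 to 31117988, on the plus strand. It was the one export gene that passed the test. The level was 87.7 and 84.9 CPM in the MCD-LPS libraries, against 109.5 and 114 CPM in the LPS libraries. In the MCD libraries it was 267 and 247 CPM, against 311 and 292 CPM in the ctl libraries. The libraries with MCD lay below those without it in both settings, with no overlap. In MCD-LPS against LPS cells it fell by 0.35 on the log2 scale (SE 0.05, limma adjusted p of 0.0012), a level 1.28-fold lower, and the adjusted p stayed between 0.00078 and 0.0139 over the 14 alternative settings. In MCD against ctl cells the log2 fold change was -0.22 (SE 0.05), with a limma adjusted p of 0.0868 that did not pass. That p was 0.0030 in a fit of only the 4 untreated libraries. Of the 14 alternative settings 3 passed and the others did not, so that this call depends on which libraries are in the fit. With a library left out, the log2 fold change ran between -0.28 and -0.17. The difference between these MCD effects was -0.13 (SE 0.07), with a limma adjusted p of 0.247. The mean level was 2.70-fold lower in LPS than in ctl cells, and 2.98-fold lower in MCD-LPS than in MCD cells.

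**Figure D2:**
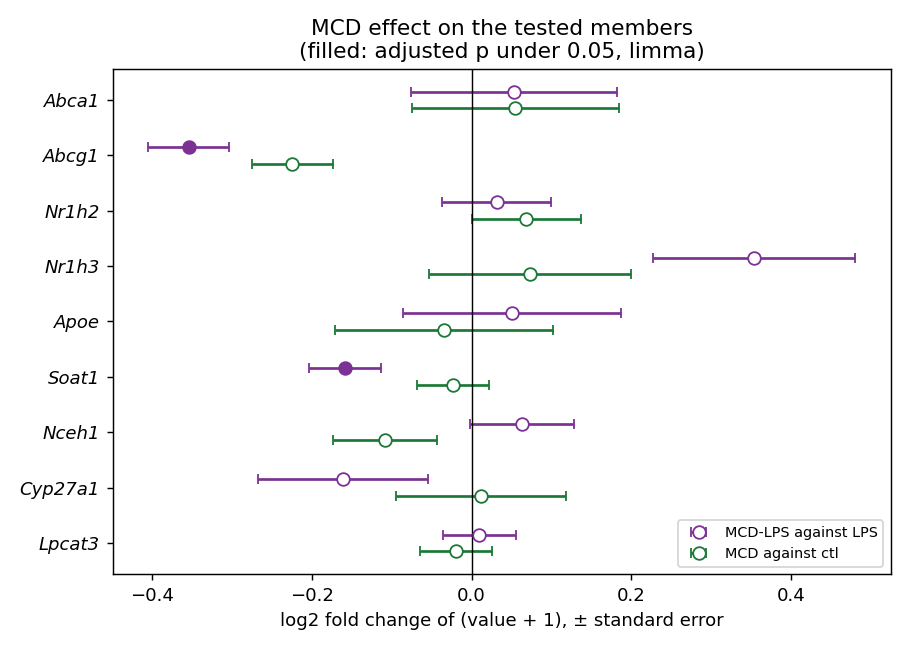
Log2 fold change (horizontal axis, of the deposited value plus 1) with its standard error for the 9 tested genes, for MCD-LPS against LPS (purple, upper) and MCD against ctl (green, lower). Filled points have a limma adjusted p under 0.05 and are Abcg1 at -0.35 and Soat1 at -0.16, both in MCD-LPS against LPS.

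Apoe codes for apolipoprotein E, a lipoprotein component that macrophages secrete and that takes up exported cholesterol, and it lies on chromosome 7, 19696109 to 19699188, on the minus strand. The level was 6.21 and 5.20 CPM in the MCD-LPS libraries, against 4.96 and 6.24 CPM in the LPS libraries. It was 5.22 and 5.56 CPM in the MCD libraries, against 5.79 and 5.32 CPM in the ctl libraries. The 4 groups overlapped, and the gene was low throughout, at 209 to 256 reads a library. Its log2 fold changes were 0.05 in MCD-LPS against LPS cells and -0.03 in MCD against ctl cells (SE 0.14 each), and neither passed the test.

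The receptor genes differed in opposite directions between LPS-treated and untreated cells. Nr1h3 codes for LXRα, the form whose own gene LXRs can raise, and lies on chromosome 2, 91184061 to 91202834, on the minus strand. Its level was 2.04 and 2.14 CPM in the MCD-LPS libraries, against 1.70 and 1.60 CPM in the LPS libraries, which are 83, 86, 73 and 62 reads. It was 4.95 and 5.69 CPM in the MCD libraries, against 5.29 and 4.86 CPM in the ctl libraries. The MCD-LPS libraries lay above the LPS libraries, while MCD and ctl libraries overlapped. The log2 fold change in MCD-LPS against LPS cells was 0.35 (SE 0.13), with a limma adjusted p of 0.068 that did not pass and that ran between 0.0688 and 0.211 over the 14 alternatives. The mean level was 3.07-fold lower in LPS than in ctl cells, and 2.55-fold lower in MCD-LPS than in MCD cells.

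Nr1h2 codes for LXRβ, the form found in most tissues, and lies on chromosome 7, 44549616 to 44553951, on the minus strand. Its level was 93.3 and 102 CPM in the MCD-LPS libraries, against 90.5 and 104 CPM in the LPS libraries. It was 60.6 and 64.0 CPM in the MCD libraries, against 60.4 and 59.1 CPM in the ctl libraries. All 4 LPS-treated libraries lay above all 4 untreated ones, and the MCD libraries lay just above the ctl libraries. The mean level was 1.63-fold higher in LPS than in ctl cells and 1.57-fold higher in MCD-LPS than in MCD cells. The log2 fold changes with MCD were 0.03 in MCD-LPS against LPS cells and 0.07 in MCD against ctl cells (SE 0.07 each), and neither passed. Per kb of exon, Nr1h2 averaged 28.9 CPM in LPS cells and 17.8 CPM in ctl cells, and Nr1h3 averaged 0.657 CPM in LPS cells and 2.02 CPM in ctl cells, so that LXRβ was the more abundant LXR transcript in both.

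**Figure D3:**
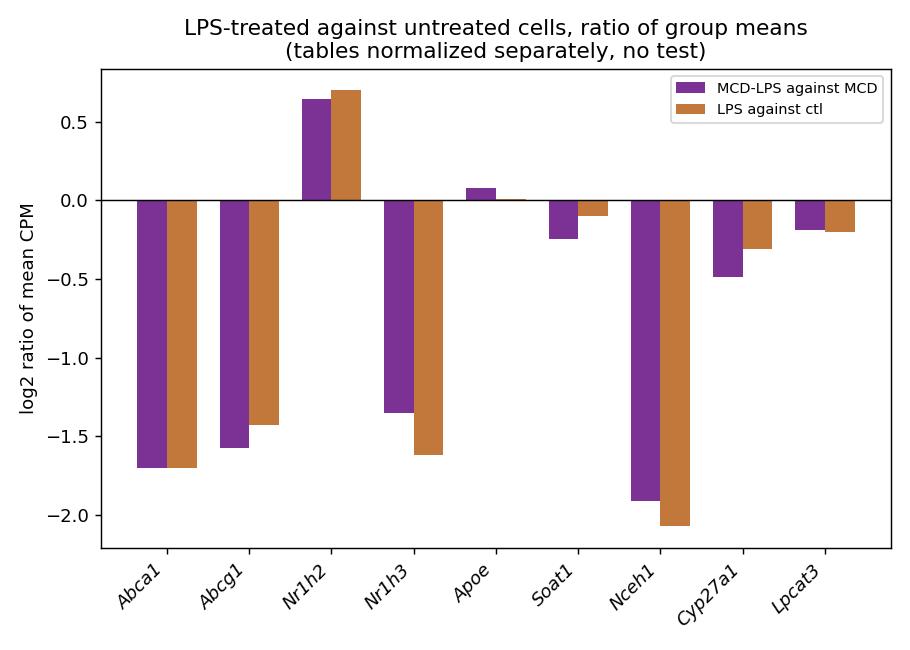
Log2 ratio of mean CPM (vertical axis) for the 9 detected genes, for MCD-LPS against MCD (purple, left bars) and LPS against ctl (orange, right bars). Nceh1 has the lowest ratios, at -1.91 and -2.07, and Nr1h2 is the only gene with ratios of 0.65 and 0.70; the ratios join separately normalized tables and carry no test.

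Soat1 codes for the acyltransferase of the endoplasmic reticulum that makes cholesterol ester, and lies on chromosome 1, 156424525 to 156474331, on the minus strand. Its level was 362 and 371 CPM in the MCD-LPS libraries, against 424 and 405 CPM in the LPS libraries. It was 448 and 421 CPM in the MCD libraries, against 457 and 431 CPM in the ctl libraries. The MCD-LPS libraries lay below the LPS libraries, and the MCD and ctl libraries overlapped. In MCD-LPS against LPS cells Soat1 fell by 0.16 on the log2 scale (SE 0.04, limma adjusted p of 0.0285), a level 1.12-fold lower. The adjusted p was 0.0524 with no filter on low values and 0.0592 in a fit of only the 4 LPS-treated libraries. It was 0.0938 without LPS replicate 1, 0.123 without MCD-LPS replicate 1 and 0.0885 without MCD-LPS replicate 2, so that the call is close to the threshold. The mean was 1.07-fold lower in LPS than in ctl cells and 1.19-fold lower in MCD-LPS than in MCD cells. The difference of the MCD effect from that in resting cells was -0.14 (SE 0.06), with a limma adjusted p of 0.173.

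Nceh1 codes for a neutral hydrolase that macrophages use to release cholesterol from its esters, and lies on chromosome 3, 27182965 to 27284608, on the plus strand. Its level was 42.1 and 44.6 CPM in the MCD-LPS libraries, against 41.4 and 42.8 CPM in the LPS libraries. It was 166 and 159.6 CPM in the MCD libraries, against 190.0 and 164 CPM in the ctl libraries. The libraries with and without MCD overlapped in both settings. Nceh1 had the widest gap of the 10 genes between LPS-treated and untreated cells, at 4.21-fold lower in LPS than in ctl cells and 3.76-fold lower in MCD-LPS than in MCD cells. The log2 fold changes with MCD were 0.06 in MCD-LPS against LPS cells and -0.11 in MCD against ctl cells (SE 0.07 each), and neither passed the test.

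Ch25h and Cyp27a1 code for enzymes that make oxysterols, 25-hydroxycholesterol and 27-hydroxycholesterol in that order. Ch25h lies on chromosome 19, 34473778 to 34475164, on the minus strand, and had 0 reads in each of the 8 libraries. Taking 3 counts as the limit of detection, levels below 0.0619 CPM in the deepest library and 0.0776 CPM in the shallowest could not be told from 0, a limit that covers counting error only. Cyp27a1, on chromosome 1, 74713574 to 74737892, on the plus strand, was detected in every library. Its level was 21.9 and 27.9 CPM in the MCD-LPS libraries, against 26.0 and 30.2 CPM in the LPS libraries. It was 35.7 and 34.2 CPM in the MCD libraries, against 35.8 and 34.0 CPM in the ctl libraries. All LPS-treated libraries lay below all untreated ones, but the mean was only 1.24-fold lower in LPS than in ctl cells and 1.40-fold lower in MCD-LPS than in MCD cells, under the 1.5-fold used here. The log2 fold changes with MCD, -0.16 in MCD-LPS against LPS cells and 0.01 in MCD against ctl cells (SE 0.11 each), did not pass.

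Lpcat3 codes for the acyltransferase that places polyunsaturated fatty acids into membrane phospholipids, and lies on chromosome 6, 124663027 to 124704418, on the plus strand. Its level was 54.2 and 55.6 CPM in the MCD-LPS libraries, against 56.7 and 53.9 CPM in the LPS libraries. It was 63.0 and 61.8 CPM in the MCD libraries, against 64.7 and 62.5 CPM in the ctl libraries. The libraries with and without MCD overlapped in both settings, with log2 fold changes of 0.01 in MCD-LPS against LPS cells and -0.02 in MCD against ctl cells (SE 0.05 each), neither of which passed. The mean was 1.15-fold lower in LPS than in ctl cells and 1.14-fold lower in MCD-LPS than in MCD cells. Its exons share 334 bases with those of Emg1 on the opposite strand. Ch25h likewise shares 159 bases with Gm26902 on the opposite strand, and Nr1h3 shares 34 bases with Gm13783 on the same strand. The sources used here do not say whether counting used the strand, so that reads in these shared bases cannot be assigned to one gene.

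The order of the levels per kb of exon differed between LPS-treated and untreated cells. In LPS cells the order from the top was Soat1 (42.3 CPM per kb), Nr1h2 (28.9), Lpcat3 (16.9), Abcg1 (15.3), Cyp27a1 (12.9), Nceh1 (8.01), Apoe (2.62), Abca1 (1.01) and Nr1h3 (0.657). In ctl cells it was Soat1 (45.3 CPM per kb), Abcg1 (41.3), Nceh1 (33.7), Lpcat3 (19.5), Nr1h2 (17.8), Cyp27a1 (16.1), Abca1 (3.28), Apoe (2.60) and Nr1h3 (2.02). Abcg1 was therefore the fourth gene in LPS cells and the second in ctl cells, and Nceh1 the sixth and the third. Neighbours in these orders had libraries that did not overlap. In MCD cells Lpcat3 and Nr1h2 overlapped, and in MCD-LPS cells Abcg1 and Cyp27a1 did.

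Among all 11544 other genes with values in both tables, those whose log2 levels ran most like a given member over the 8 libraries were named by Pearson's r. For Abca1 they were Dchs1 (r = 0.998), Magi3 (0.997) and Pik3c2a (0.996). For Abcg1 they were Msrb1 (r = 0.998), Rgs10 (0.997) and Armt1 (0.997), and for Nr1h3 they were Abcd3 (r = 0.998), Cherp (0.998) and Rnf168 (0.998). The 8 libraries fall into LPS-treated and untreated ones, which also differ in table and column prefix, and r over them mainly reads that split. Each of these 9 genes was lower in LPS than in ctl cells, for example Dchs1 at 0.605 CPM in LPS cells and 2.61 CPM in ctl cells.

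Of 13 other LXR targets, 10 were tested. In MCD against ctl cells 1 was higher and 1 was lower, and in MCD-LPS against LPS cells 1 was higher and 3 were lower, where 1.11% and 25.9% of all genes passed in these comparisons. The list's median log2 fold change was -0.03 in MCD against ctl cells and -0.06 in MCD-LPS against LPS cells. Mylip, which codes for the ubiquitin ligase that degrades the LDL receptor, was at 10.3 and 7.99 CPM in the MCD-LPS libraries, against 14.0 and 17.3 CPM in the LPS libraries. It was at 13.9 and 12.7 CPM in the MCD libraries, against 22.3 and 21.2 CPM in the ctl libraries. Mylip fell by 0.76 on the log2 scale in MCD-LPS against LPS cells (SE 0.13, limma adjusted p of 0.0033) and by 0.70 in MCD against ctl cells (SE 0.13, limma adjusted p of 0.0418). Like those of Abcg1, its libraries with MCD lay below those without it in both settings. The call in MCD against ctl cells was lost without any one of the 4 libraries compared, at a limma adjusted p of up to 0.373. Fasn, the fatty acid synthase gene that sterol-regulated factors also drive, rose by 0.19 in MCD-LPS against LPS cells (limma adjusted p of 0.0194) and by 0.29 in MCD against ctl cells (limma adjusted p of 0.0221). Scd2, a fatty acid desaturase, fell by 0.34 (limma adjusted p of 0.0126) and Arl4c, a small GTPase, fell by 0.31 (limma adjusted p of 0.0389), both in MCD-LPS against LPS cells. Without MCD-LPS replicate 2, Scd2 was at -0.22 and did not pass. In LPS against ctl cells 5 of the 10 were higher and 1 was lower by the 1.5-fold rule, where 19.2% of all genes were higher and 15.7% lower.

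Of 13 LXR partners and coregulators, 12 were tested. None passed in MCD against ctl cells by limma's adjusted p or at an unadjusted p under 0.05, while 1 was higher and 3 were lower in MCD-LPS against LPS cells, where 25.9% of all genes passed. The list's median log2 fold change was 0.04 in MCD against ctl cells and -0.03 in MCD-LPS against LPS cells. Rxrb, an RXR partner of the LXRs, was at 83.3 and 85.1 CPM in the MCD-LPS libraries, against 103.7 and 101 CPM in the LPS libraries. It fell by 0.26 on the log2 scale (SE 0.04, limma adjusted p of 0.0019). Ncoa3, a coactivator, fell by 0.23 (limma adjusted p of 0.0102), and Nrip1, a corepressor of nuclear receptors, fell by 0.43 (limma adjusted p of 0.0222). Gps2, a subunit of a nuclear corepressor complex, rose by 0.23 (limma adjusted p of 0.0187). Without LPS replicate 1, Nrip1 was at -0.28 and Gps2 at 0.15, and without MCD-LPS replicate 2, Nrip1 was at -0.29, none of which passed. The MCD effect differed between LPS-treated and resting cells for 3 of the 12, namely Rxrb, Ncoa3 and Nrip1, where 17.1% of all genes passed. Time after MCD differed along with LPS there. In LPS against ctl cells 2 of the 12 were lower and 0 were higher by the 1.5-fold rule, where 15.7% of all genes were lower and 19.2% higher.

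The remaining lists were of sterol export and ester handling, oxysterol enzymes and acyltransferases. Of 8 other genes of sterol export and ester handling, 7 were tested, and none passed in MCD against ctl cells by limma's adjusted p or at an unadjusted p under 0.05. The list's median log2 fold change was -0.06 there and -0.02 in MCD-LPS against LPS cells. In MCD-LPS against LPS cells Soat2, the second cholesterol acyltransferase, rose by 0.46 (limma adjusted p of 0.0422), and Lipe, the hormone-sensitive lipase, fell by 0.19 (limma adjusted p of 0.0391), which makes 2 of the 7, where 25.9% of all genes passed. Soat2 was at 0.20 without MCD-LPS replicate 2, where it did not pass, and at 0.72 without MCD-LPS replicate 1. Of 6 other oxysterol enzymes 1 was tested, and it did not pass in any of the tested comparisons. Of 6 other lysophospholipid acyltransferases, 5 were tested, and 3 passed in MCD-LPS against LPS cells, where 25.9% of all genes passed and the list's median log2 fold change was -0.11. Lpcat1 fell by 0.49 (limma adjusted p of 0.0028), Lpcat4 fell by 0.17 (limma adjusted p of 0.0148) and Lpcat2 rose by 0.41 (limma adjusted p of 0.0025), while Lpcat3 itself had a log2 fold change of 0.01. By the 1.5-fold rule in LPS against ctl cells, 3 of the 7 export and ester genes were lower and 0 were higher. Of the 5 acyltransferases 2 were lower and 0 were higher, and the 1 oxysterol enzyme was higher. Of all genes 15.7% were lower and 19.2% higher by that rule. Calls in MCD-LPS against LPS cells were followed for the genes named from the LXR target, partner, export and acyltransferase lists. Among these, Mylip, Rxrb, Lpcat1 and Lpcat2 kept their call under all 14 alternatives, and each of the others lost it when some library was left out.

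The deposited tables also held the authors' mean level of each gene over untreated and LPS-treated RAW cells, in one table with and in another without a statin, a drug that blocks cholesterol synthesis. The labels describe the statin as given together with lipoprotein-deficient serum, and the parts of the drug and the serum cannot be told apart. No values of the libraries behind these means are given here, so that the means carry no SD, n or test. Setting them side by side crosses separately normalized tables. The authors' mean was 0.937 CPM for Abca1 in the statin table, against 75.9 CPM in the table without statin, which is 81.0-fold lower. That 75.9 CPM lay above each of the 8 samples, where Abca1 reached at most 37.7 CPM. The level without statin thus differs between experiments, and a mean does not show whether 1 library drives it. For Abcg1 it was 14.8 CPM in the statin table, against 238 CPM without statin, or 16.0-fold lower. Cyp27a1 was 2.49-fold lower, at 13.0 CPM against 32.4 CPM. These 3 of the 8 genes compared were 2-fold or more lower and 0 were higher, where 8.79% of 11878 genes were lower and 5.36% higher. Nr1h3 was at 7.04 CPM with statin and 8.84 CPM without, and Nr1h2 at 83.5 CPM with statin and 67.9 CPM without. Soat1, Nceh1 and Lpcat3 were 1.38-fold, 1.07-fold and 1.48-fold lower in the statin table. Apoe and Ch25h were not compared between these tables, since their means in the table without statin may rest on 1 library. Their rows there were seen to differ strongly between the LPS libraries while the values were read. The other genes were not checked in this way. Set beside the ratio of 81.0 for Abca1, the MCD and ctl libraries of the 8 samples overlapped for this gene, at 37.7 and 32.4 CPM in MCD cells, against 37.3 and 30.7 CPM in ctl cells. The statin and MCD experiments differ in duration and table, and their effects were not compared by a test.

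LPS-treated macrophages grown from mouse bone marrow, without and with acetylated LDL as a cholesterol load, made up a further table. Apoe and Ch25h, low or undetected in the 8 RAW libraries, stood out there. The authors' mean was 14801 CPM for Apoe in the marrow macrophages, against 5.65 CPM over the MCD-LPS and LPS libraries of RAW cells, and for Ch25h it was 138 CPM in the marrow macrophages, against 0. Nr1h3 was at 91.4 CPM in the marrow macrophages, against 1.87 CPM in those RAW cells, and Abca1 at 319 CPM, against 10.6 CPM. Cyp27a1 ran the other way, at 6.61 CPM in the marrow macrophages, against 26.5 CPM in those RAW cells. The marrow means pool cells without and with the acetylated LDL load, which the RAW cells did not receive. Source, cell type, run and this load differ together between these tables and cannot be told apart.

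**Figure D4:**
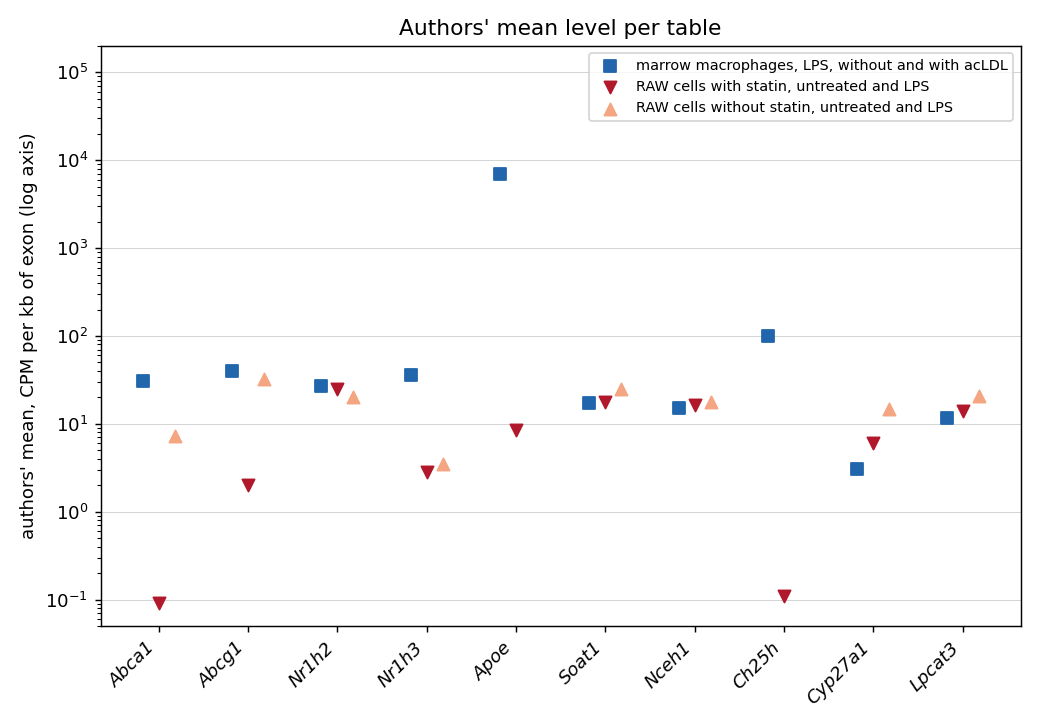
Authors' mean level of each gene in CPM per kb of exon (vertical log axis) in LPS-treated marrow macrophages (squares), RAW cells with statin (downward triangles) and RAW cells without statin (upward triangles), with no error because each point is a deposited mean and with Apoe and Ch25h left out of the table without statin. Abca1 lies lowest in the statin table, at 0.0904 CPM per kb against 7.32 without statin, and Apoe is at 6923 in the marrow macrophages.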

How the data were processed

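RNA was depleted of ribosomal RNA and made into stranded libraries. Tools listed per the labels, in the submitters' processing notes, were DESeq2 1.18.1, HTSeq 0.9.1 and STAR 2.5.3, with mm10 as the genome, while the study's methods name other tools, and which of them made the tables is not settled. The authors deposited gene counts divided by a size factor, a normalized signal that was fitted separately per table. Columns of the authors' own fold changes and p-values were left unread, and 12 library columns of other samples entered no value given here. All values were whole multiples of 1 step per library (tolerance 0.01), which gave the reads behind CPM. For some libraries the step lay so close to 1 that the check for whole reads did not accept the values. The count tests planned for that case were therefore not run. Genes that reached 10 in 2 libraries of a table were kept, and log2(value + 1) was fitted across all 8 libraries with limma 3.58.1 (trend) in R 4.3.3, with a Benjamini-Hochberg adjusted p under 0.05 as the threshold. A fold change on this scale understates that of low genes. LPS against ctl levels were compared in CPM, as libraries not overlapping and 1.5-fold apart. The fit was tested on simulated data. Gene lengths and positions came from GENCODE vM21 on GRCm38, which is mm10. The members and lists were chosen with earlier results of these data known. All members are named, and of each list at most 4 genes that passed in a comparison, the largest change first. One gene of a list is not reported here. Alternatives changed the pseudocount to 5, the filter, the libraries in the fit, the scaling and the replicate block, and left out each library in turn. The replicate numbers only name the libraries.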

Additional observations from a re-analysis of the deposited data

Results flagged for a closer look

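Tests of the difference between the MCD effect in LPS-treated cells and that in resting cells passed for 7 genes of the lists, and for none of the 9 tested LXR, export and ester genes (limma adjusted p, with 17.1% of all genes passing). Time after MCD differs along with LPS between these cells, and the parts of each cannot be told apart. The difference was -4.07 on the log2 scale for Tnf and -3.48 for Il1b, the LPS-response genes, where Tnf was far apart between the 2 LPS libraries. MCD alone raised both genes in resting cells, by 3.30 for Tnf and by more than that for Il1b (limma adjusted p of 0.00089 and 5.96e-05), while their log2 fold changes in MCD-LPS against LPS cells, -0.76 and 0.52, did not pass. It was -0.58 for Nrip1, -0.33 for Ncoa3 and -0.25 for Rxrb among the LXR partners and coregulators. It was -0.50 for Lpcat1 and 0.38 for Lpcat2 among the acyltransferases. The calls of Tnf and Il1b held under all 13 alternatives, and those of the other 5 genes were each lost when some library was left out.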

How the results depend on the processing

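Of 369 recomputed values of the 9 tested genes, 361 stayed on their side of the threshold, 5 lost the call (Soat1 in MCD-LPS against LPS) and 3 gained it (Abcg1 in MCD against ctl), and none of these calls changed direction. All 45 recomputed LPS against ctl ratios moved by less than the spread between replicates. With 2 libraries a group, leaving 1 out could hardly move a ratio beyond that spread, so those ratios are no check. Only the ratios under another scaling could have moved further. The count of genes in MCD against ctl, 131 as reported, was 85 with no filter and 565 with only the 4 libraries compared, and ran between 27 and 320 with a library left out. In MCD-LPS against LPS the count of 3099 was 1791 with only the 4 libraries, and 1814 to 3400 with a library left out. For the difference of the MCD effects the count of 1975 ran between 821 and 2691 with a library left out. The LPS against ctl count of genes of the set stayed at 5 with a library left out. The same-numbered libraries had deviations with a correlation of 0.041 (MCD and ctl) and 0.034 (MCD-LPS and LPS), so that the numbers do not pair them, and the replicate block gave 150, 3065 and 1919 genes in the 3 tested comparisons. It changed no call of the 9 genes, and of the list genes named it gave a limma adjusted p of 0.0512 for Mylip in MCD against ctl and 0.0522 for Lipe in MCD-LPS against LPS. Scaling by median ratios over all 8 libraries was chosen after seeing the data. The planned edgeR and DESeq2 tests and TMM-scaled CPM were not run, and a fit of 1 table has no contrast for the difference of effects. Where an arm is left with 1 library, that library is assumed to vary like the other groups. The causes of these changes were not tested. With 2 libraries a group, and 62 to 86 reads for Nr1h3 in LPS-treated cells, small changes of low genes were not detectable at this depth.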
